A study of Oryza sativa Japonica Group with 59 samples.

Results

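The 10 genes described here build the meiotic chromosome axis, the synaptonemal complex and the recombination machinery of rice, and they were followed by RNA-seq through male meiocyte, unicellular microspore, sperm, egg and zygote. They were chosen by gene identifier, and all 10 of the 10 identifiers were found among the 55986 features of every table. The axis and cohesin genes are *PAIR2* (LOC_Os09g32930), *PAIR3* (LOC_Os10g26560) and *REC8* (LOC_Os05g50410), and *ZEP1* (LOC_Os04g37960) is the synapsis gene. The break formation genes are *PAIR1* (LOC_Os03g01590) and *SPO11-1* (LOC_Os03g54091), the strand exchange genes are *DMC1A* (LOC_Os12g04980) and *DMC1B* (LOC_Os11g04954), and the crossover genes are *HEI10* (LOC_Os02g13810) and *MER3* (LOC_Os02g40450). The tables held no coordinates.

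In meiosis, sister chromatids are held by cohesin and folded along a protein axis, and programmed breaks made on these loops are repaired against the homologous chromosome. Homologs are then zipped together by the synaptonemal complex, and a subset of the repair sites matures into crossovers that hold homologs together until they segregate. In anthers this takes place in the male meiocytes, whose products are the microspores, and sperm form after further mitotic divisions of the microspore.

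All plants were rice of the Zhonghua11 (ZH11) variety. The 5 wild type (WT) groups, from a line regenerated through tissue culture, were meiocyte (3 libraries), unicellular microspore (3), sperm (2 files), egg (3) and zygote (3). The *cmt3b* mutant groups were meiocyte (3), sperm (3), egg (2) and zygote (3), and the *cmt3a* mutant was measured by RNA-seq in egg (2). *CMT3a* and *CMT3b* encode chromomethylases, which methylate cytosines in the CHG context. Both mutants are CRISPR knockouts freed of Cas9, with independent lines for each gene, and the line behind each library is not named in the sources used here. Zygotes were taken 6 to 8 h after fertilization. Each library was made from pooled, hand-isolated cells, and *cmt3a* plants were infertile. Nothing in the labels says that libraries of a group came from separate plants, so p-values measure the spread between these libraries, which may be technical.

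Total counts were between 9240046 and 25610860 per library, with a median of 16151914. Counts in the 2 files of WT sperm were closer than sampling noise allows, with a chi-square of 0.240 per degree of freedom over 19391 genes against 1.37 to 6.73 in the other 23 pairs of replicates. They were counted as 1 sample, and comparisons with WT sperm have no test. The targeted gene *CMT3b* was at 5.07 to 6.48 FPKM (the level per gene length and per total count of the library) in WT meiocyte and at 1.12 to 1.27 in *cmt3b* meiocyte, and it was also lower in *cmt3b* sperm, egg and zygote than in WT. *CMT3a* was at 8.20 to 9.54 FPKM in WT egg and at 3.10 to 3.40 FPKM in *cmt3a* egg. Of 6 genes listed as markers of the tapetum, the anther wall layer next to the meiocytes, the summed level was 1705 to 1742 CPM (the level per total count, without length) in WT meiocyte, 1287 to 1304 CPM in microspore and 1808 to 1854 CPM in *cmt3b* meiocyte, with 1 of the 6 at 3 counts or fewer per library in both meiocyte groups. It was 39.1 to 39.5 CPM in WT sperm and 4.69 to 6.13 CPM in egg. The part of such transcripts in the results was not tested.

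WT meiocyte held all 10 genes, at mean levels from 1.67 FPKM (*MER3*) to 121 FPKM (*DMC1B*), with a median over the genes of 15.3 FPKM. *DMC1B*, a recombinase that pairs broken DNA with the homolog, was at 121, 120 and 121 FPKM in the 3 libraries. Its near-identical copy *DMC1A* was at 34.2, 30.5 and 31.3 FPKM. How reads were shared between copies in the authors' counting is not given in the sources used here, so the 2 levels are uncertain while their sum is less so. *PAIR2*, a HORMA-domain axis protein related to Arabidopsis ASY1, was at 69.6, 68.0 and 66.6 FPKM. The coiled-coil axis protein gene *PAIR3* was lower, at 11.8, 10.9 and 10.9 FPKM, and the meiotic cohesin subunit gene *REC8* stood near it at 13.1, 12.1 and 13.8 FPKM.

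*SPO11-1*, which encodes the topoisomerase-like protein that cuts DNA, was at 20.7, 18.6 and 19.6 FPKM in WT meiocyte. *PAIR1*, needed in rice for homolog pairing and for break formation, was at 16.9, 19.2 and 16.6 FPKM. Both break formation genes were thus between the axis genes *PAIR2* and *PAIR3* in level. *ZEP1*, the transverse filament of the synaptonemal complex, was at 9.55, 10.1 and 9.71 FPKM. *HEI10*, a RING-domain protein that marks crossover sites, was at 6.88, 7.48 and 7.66 FPKM. *MER3*, a helicase of the same crossover pathway, was the lowest of the 10 at 1.63, 1.62 and 1.78 FPKM.

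Meiocyte was the WT group with the highest mean for 4 of the 10 genes (*PAIR2*, *PAIR3*, *ZEP1* and *DMC1B*). Sperm was highest for 4 others (*REC8*, *SPO11-1*, *DMC1A* and *HEI10*) and zygote for 2 (*PAIR1* and *MER3*), whereas microspore and egg were highest for 0. Among neighbours in the order of the 5 WT groups, libraries overlapped between meiocyte and egg for *REC8* and *SPO11-1*, between sperm and meiocyte for *DMC1A* and between zygote and meiocyte for *MER3*. In every other neighbouring pair of WT groups the libraries did not overlap. Here and below, how often libraries of compared groups do not overlap over all genes was not counted, so non-overlap is a description only. When TMM replaced total counts in the FPKM values, *PAIR3* was highest in sperm (11.5 FPKM) and *MER3* in meiocyte (1.65 FPKM against 1.54 FPKM in zygote).

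**Figure D1:**
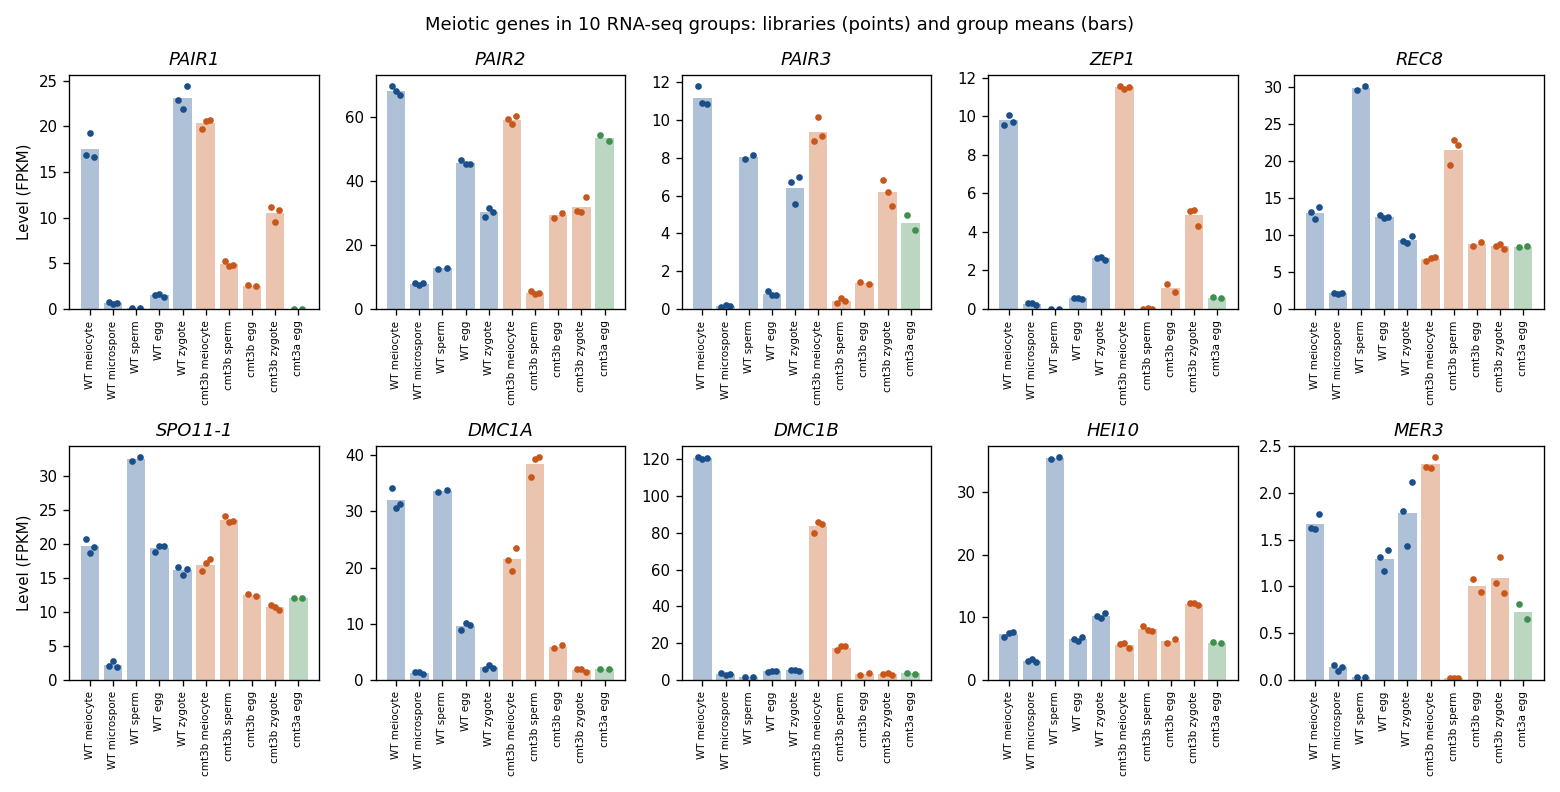
Level of each gene in FPKM (vertical axes, each starting at 0 and scaled to its gene) in the 10 RNA-seq groups, with WT in blue, *cmt3b* in orange and *cmt3a* in green. Points are libraries and bars are group means; the 2 WT sperm points are files counted as 1 sample. *DMC1B* reached 121 FPKM in WT meiocyte and 5.01 FPKM at most in the means of the other WT groups, whereas *HEI10* peaked in WT sperm at 35.5 FPKM.

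The first comparison asked what remained of meiotic transcripts after meiosis, in the unicellular microspore. Of the 10 genes, 9 fell against meiocyte (edgeR quasi-likelihood test, adjusted p under 0.01 over all genes and fold change over 2), and all 10 were lower at that adjusted p at any fold. Over all 23884 genes tested, 32.3% were called lower and 29.7% higher by the same limits, and 43.8% were lower and 42.3% higher at any fold. The median log2 fold change of the 10 genes was -3.83, and that of all genes was -0.05. In bulk libraries, fewer cells that hold a transcript and less of it per cell cannot be told apart.

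The axis gene *PAIR3* was at 0.108, 0.211 and 0.156 FPKM in microspore, and it fell by 5.76 on the log2 scale (SE 0.18, edgeR adjusted p = 1.74e-22). *PAIR2* was at 8.17, 7.42 and 7.93 FPKM, the highest level of the 10 genes in microspore, and it fell by 2.79 (SE 0.06, edgeR adjusted p = 5.83e-27). *REC8* was at 2.17, 1.98 and 2.21 FPKM and fell by 2.30 (SE 0.10, edgeR adjusted p = 1.20e-18). The libraries of the 2 cell types did not overlap for any of these axis and cohesin genes, with no share over all genes counted. The synapsis gene *ZEP1* was at 0.309, 0.310 and 0.214 FPKM, 27.9-fold lower than in meiocyte by the fitted fold change (SE 0.15 on the log2 scale, edgeR adjusted p = 3.38e-22).

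*PAIR1* was at 0.775, 0.568 and 0.629 FPKM in microspore, a fitted 21.3-fold below meiocyte (log2 SE 0.14, edgeR adjusted p = 5.59e-22). *SPO11-1* was at 2.02, 2.78 and 1.86 FPKM, a fitted 6.99-fold below meiocyte (log2 SE 0.12, edgeR adjusted p = 9.08e-19). Transcripts of both break formation genes were therefore lower in every microspore library than in any meiocyte library. *DMC1B* was at 3.49, 2.72 and 2.97 FPKM and *DMC1A* at 1.37, 1.36 and 1.07 FPKM. With the counts of both copies summed, *DMC1* fell by 4.83 on the log2 scale (SE 0.07, edgeR adjusted p = 4.08e-31).

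The crossover gene *MER3* was at 0.162, 0.0965 and 0.140 FPKM in microspore and fell by 3.33 on the log2 scale (SE 0.25, edgeR adjusted p = 2.70e-13). *HEI10* was at 2.95, 3.36 and 2.85 FPKM, and its log2 fold change of -0.94 (SE 0.10, edgeR adjusted p = 1.57e-09) was just inside the 2-fold limit. The log2 fold change of *HEI10* was -1.26 with total counts in place of TMM, -1.08 with no filter on low counts, -1.02 without WT meiocyte replicate 1 and -1.01 without WT microspore replicate 2, and it was called in each of these settings. *HEI10* was thus the gene with the smallest loss of the 10. In a list of 20 other meiosis genes, 14 fell, 0 rose and the median log2 fold change was -1.71. Of the 6 tapetum genes 3 were called higher and 2 lower in microspore. Scaling by total counts moved the median of all genes in this comparison by -0.32 log2 units and left 0 of the 10 genes higher.

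In WT sperm the 10 genes differed widely among themselves, from 0 counts for *ZEP1* to 35.5 FPKM for *HEI10*. A gene was counted as different when every meiocyte library was over 2-fold to the same side of the single sperm sample, in log2 CPM (prior count of 2). By this count 5 of the 10 genes were lower and 3 were higher, with 48.2% of 27037 genes lower and 32.6% higher. The counts of the 10 genes are near these background shares, and they are descriptions, since 1 sample allows no test. The median log2 ratio was -0.90 over the 10 genes and -0.94 over all genes.

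Of the 5 lower genes, *ZEP1* had 0 counts in both WT sperm files, so its level per total count was at least 172-fold higher in meiocyte (floor of 3 counts in the smaller file). *PAIR1* had 2 counts in each sperm file, 301-fold below meiocyte with a 95% counting interval of 83.2 to 2490. *MER3* also had 2 counts in each file, 61.1-fold below meiocyte with an interval of 16.7 to 507. These transcripts of pairing, synapsis and crossover genes were at or under the floor of 3 counts in sperm. *DMC1B* was at 1.44 and 1.36 FPKM in the 2 files, with a log2 ratio of -5.82 to meiocyte. *PAIR2*, at 12.6 and 12.7 FPKM, was lower by a log2 ratio of -1.87 and still above every microspore library.

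Of the 3 higher genes, *HEI10* was at 35.3 and 35.7 FPKM in WT sperm, a log2 ratio of 2.82 to meiocyte and the highest level of the 10 genes in sperm. *REC8* was at 29.7 and 30.2 FPKM, with a log2 ratio of 1.75. *SPO11-1* was at 32.2 and 32.8 FPKM, with a log2 ratio of 1.28. The cohesin gene and the gene of the cutting enzyme were thus both above every meiocyte library. With total counts in place of TMM the log2 ratio of *SPO11-1* was 0.73, under 2-fold, and that of *REC8* was 1.20, and this scaling moved the median of all genes by -0.51 log2 units. *DMC1A* and *PAIR3* were counted in neither direction. *DMC1A* was at 33.4 and 33.8 FPKM, within the range of meiocyte libraries, with a log2 ratio of 0.62. *PAIR3* was at 7.96 and 8.15 FPKM, below every meiocyte library in FPKM, and its log2 ratio of 0.08 changed direction to -0.47 with total counts.

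The same sperm sample was set against the microspore libraries, where 6 of the 9 genes compared were higher and 2 were lower, with 32.7% of 26426 genes higher and 46.8% lower. *PAIR3* had the largest ratio, with a log2 ratio of 5.62 from the 0.108 to 0.211 FPKM of microspore. *DMC1A* followed with a log2 ratio of 5.01, and *SPO11-1* and *REC8* had log2 ratios of 4.21 and 4.17. The log2 ratio of *HEI10* was 3.91 and that of *PAIR2* was 1.08. With total counts the log2 ratio of *PAIR2* was 0.69, under 2-fold. The 2 lower genes were *PAIR1* and *ZEP1*, and *MER3* was removed by the filter on low counts. For the 6 higher genes the microspore level was thus under those of both meiocyte and sperm. The fall of *HEI10* from meiocyte to microspore was under 2-fold, at a log2 fold change of -0.94. How often this joint pattern occurs outside the 10 genes was not counted, so the 6 genes are a description only. The median log2 ratio of the 9 genes was 3.91 and that of all genes was -0.83.

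*cmt3b* sperm, with 3 libraries, allowed a test of sperm against meiocyte within the mutant. There, 6 of the 10 genes fell and 1 rose (edgeR, adjusted p under 0.01 and fold change over 2), with 46.6% of 24844 genes called lower and 32.5% called higher. *PAIR2* was at 5.52, 4.72 and 4.81 FPKM in *cmt3b* sperm and fell by 3.47 on the log2 scale (SE 0.08, edgeR adjusted p = 6.84e-24). *PAIR3* was at 0.316, 0.558 and 0.394 FPKM and fell by 4.40 (SE 0.16, edgeR adjusted p = 1.56e-19). Both axis genes were therefore below every *cmt3b* meiocyte library. *ZEP1* had 1 count in all over the 3 *cmt3b* sperm libraries, 1666-fold below *cmt3b* meiocyte with a counting interval of 299 to 65823. *MER3* had 1 count in each, 150-fold below with an interval of 50.9 to 729.

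*PAIR1* remained at 5.27, 4.66 and 4.80 FPKM in *cmt3b* sperm, and its fall against *cmt3b* meiocyte was 1.97 on the log2 scale (SE 0.09, edgeR adjusted p = 1.47e-17). *DMC1B* was at 15.9, 18.2 and 18.2 FPKM and fell by 2.18 (SE 0.07, edgeR adjusted p = 3.53e-20). The riser was the cohesin gene *REC8*, at 19.5, 22.8 and 22.2 FPKM, with a log2 fold change of 1.74 (SE 0.08, edgeR adjusted p = 6.07e-17). *DMC1A*, *HEI10* and *SPO11-1* were higher at the adjusted p but under 2-fold, with log2 fold changes of 0.92, 0.65 and 0.56. At any fold 4 genes were higher and 6 lower, with 39.8% and 53.3% of all genes. The summed *DMC1* counts gave a log2 fold change of -0.88 (SE 0.07, edgeR adjusted p = 1.74e-12). For the 10 genes the median was -2.07 on the log2 scale, and for all genes it was -0.65.

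Set side by side with no test, WT and *cmt3b* sperm differed in level for several of the genes. *PAIR1* was at 0.0579 FPKM as the mean of the WT files and at 4.91 ± 0.321 FPKM (SD, n = 3) in *cmt3b* sperm, 84.9-fold higher per total count with a counting interval of 23.4 to 704. *DMC1B* was at 1.40 FPKM in WT and 17.4 ± 1.30 FPKM in *cmt3b*. In the other direction, *PAIR3* was at 8.05 FPKM in WT and 0.423 ± 0.124 FPKM in *cmt3b*, and *HEI10* at 35.5 FPKM in WT and 8.15 ± 0.439 FPKM in *cmt3b*. *REC8*, *SPO11-1* and *DMC1A* differed less, with 29.9, 32.5 and 33.6 FPKM in WT and 21.5, 23.5 and 38.4 FPKM in *cmt3b*. The spread of WT sperm is unknown, so whether these differences exceed it cannot be told. The 2 genotypes also differed in the 6 tapetum genes. In *cmt3b* sperm 1 of them was at 371 to 475 counts against 0 or 1 in the WT files, and 1 at 225 to 282 against 1. In the other direction, 1 was at 124 to 139 counts against 700 to 727 in WT. The remaining 3 were at 3 counts or fewer in every *cmt3b* sperm library and at 5 or fewer in WT. The part of such transcripts was not tested.

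**Figure D2:**
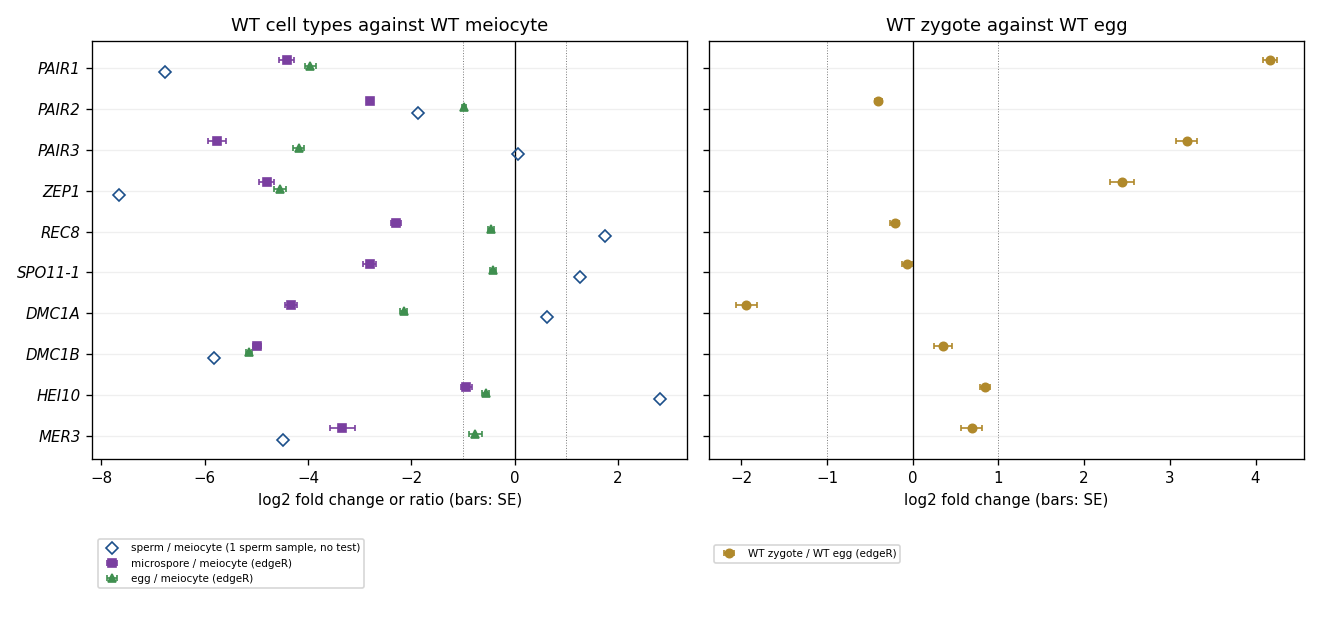
Log2 fold changes of each gene (horizontal axes) with SE bars from edgeR; dotted lines mark 2-fold. Left, WT microspore and egg against meiocyte, with the untested ratio of the single WT sperm sample as open diamonds, of which *ZEP1* (0 counts), *PAIR1* and *MER3* (2 counts per file) depend on the prior count. Right, WT zygote against egg, where *PAIR1*, *PAIR3* and *ZEP1* were above 2-fold and *DMC1A* was below.

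Egg cells have completed female meiosis, and the next comparison asked which of the transcripts they hold. Of the 10 genes, 5 were called lower in WT egg than in male meiocyte and 0 higher, with 30.6% of 23516 genes called lower and 20.9% higher. At any fold, 10 of 10 were lower at adjusted p under 0.01, with 45.4% of all genes lower and 39.5% higher. The 10 genes had a median log2 fold change of -1.56 and all genes one of -0.09. In the list of 20 other meiosis genes, 9 fell and 3 rose.

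The genes that fell were *PAIR1*, *PAIR3*, *ZEP1*, *DMC1A* and *DMC1B*. *PAIR3* was at 0.941, 0.734 and 0.716 FPKM in egg, with a log2 fold change of -4.18 (SE 0.11, edgeR adjusted p = 6.47e-30). *ZEP1* was at 0.583, 0.547 and 0.515 FPKM, with a log2 fold change of -4.54 (SE 0.11, edgeR adjusted p = 6.70e-31). *PAIR1* was at 1.48, 1.68 and 1.35 FPKM, with a log2 fold change of -3.95 (SE 0.10, edgeR adjusted p = 3.22e-30). Axis, synapsis and pairing genes were thus among the called genes, each without overlap of libraries, for which no share over all genes was counted. *DMC1B* was at 4.20, 4.50 and 4.76 FPKM, the largest fall of the 10 at a log2 fold change of -5.15 (SE 0.05, edgeR adjusted p = 1.49e-42). *DMC1A* was at 8.88, 10.1 and 9.71 FPKM, above *DMC1B* in every egg library, with a log2 fold change of -2.15 (SE 0.06, edgeR adjusted p = 5.83e-28).

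The other 5 genes stayed within 2-fold of meiocyte in egg. *PAIR2* was at 46.3, 45.2 and 45.2 FPKM, the highest of the 10 genes in egg, with a log2 fold change of -0.97 (SE 0.04, edgeR adjusted p = 5.53e-24). With DESeq2 size factors it was -1.01 and called. *SPO11-1* was at 18.8, 19.7 and 19.7 FPKM and *REC8* at 12.7, 12.3 and 12.4 FPKM, both within the range of the meiocyte libraries in FPKM. On the TMM scale their log2 fold changes were -0.42 (SE 0.06, edgeR adjusted p = 5.17e-08) and -0.46 (SE 0.06, edgeR adjusted p = 3.23e-09). With total counts, which moved the median of all genes by 0.39 log2 units, these were -0.02 (edgeR adjusted p = 0.726) and -0.06 (edgeR adjusted p = 0.301). *HEI10* was at 6.56, 6.18 and 6.83 FPKM and *MER3* at 1.32, 1.16 and 1.39 FPKM, with log2 fold changes of -0.56 and -0.76. With total counts *HEI10* also missed the adjusted p, at a log2 fold change of -0.17 (edgeR adjusted p = 0.0347).

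In WT zygote against WT egg, 3 of the 10 genes rose and 1 fell, with 13.1% of 21265 genes called higher and 9.64% called lower. *PAIR1* was at 22.8, 21.9 and 24.4 FPKM in zygote, above every meiocyte library, and it rose 17.9-fold over egg (log2 fold change 4.17, SE 0.08, edgeR adjusted p = 6.58e-31). *PAIR3* was at 6.69, 5.53 and 7.0 FPKM and rose 9.18-fold (log2 fold change 3.20, SE 0.12, edgeR adjusted p = 1.69e-22). *ZEP1* was at 2.62, 2.71 and 2.53 FPKM and rose 5.43-fold (log2 fold change 2.44, SE 0.14, edgeR adjusted p = 3.55e-17). A pairing gene, an axis gene and the synapsis gene were thus raised in a cell type that does not undergo meiosis. The gene that fell was *DMC1A*, at 1.86, 2.67 and 2.04 FPKM, with a log2 fold change of -1.94 (SE 0.12, edgeR adjusted p = 1.64e-16).

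Within 2-fold in zygote, *HEI10* was at 10.2, 9.85 and 10.6 FPKM and was higher at the adjusted p, with a log2 fold change of 0.85 (SE 0.06, edgeR adjusted p = 8.00e-15). *MER3* was at 1.81, 1.44 and 2.12 FPKM, with a log2 fold change of 0.69 (SE 0.13, edgeR adjusted p = 7.62e-06). Both crossover genes were higher in every zygote library than in any egg library. *PAIR2* was at 28.6, 31.4 and 30.4 FPKM, with a log2 fold change of -0.40 (SE 0.04, edgeR adjusted p = 1.15e-11). *REC8* and *SPO11-1* had log2 fold changes of -0.21 and -0.07, of which that of *SPO11-1* did not pass the test (edgeR adjusted p = 0.281). *DMC1B* was at 5.06, 5.08 and 4.90 FPKM, with a log2 fold change of 0.35. At any fold 6 genes were higher and 3 lower at adjusted p under 0.01, with 36.2% of all genes higher and 36.3% lower. With total counts 5 of the 10 were higher and 4 lower, and the shares of all genes on that scale were not counted. The median log2 fold change was 0.52 over the 10 genes and -0.01 over all genes, and of the 20 other meiosis genes 9 rose and 1 fell.

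The share of *DMC1B* among counts of both *DMC1* copies differed between cell types. It was 80.3% ± 0.881 (SD, n = 3) in WT meiocyte, 72.3% ± 3.47 (n = 3) in microspore and 71.4% ± 3.76 (n = 3) in zygote. In WT egg it was 33.7% ± 1.13 (n = 3), and no egg library overlapped those of meiocyte, microspore or zygote. In the WT sperm files it was 4.44% (95% Wilson interval 3.29% to 5.97%) and 4.18% (3.04% to 5.70%). The counts behind these shares ran from 76 in a microspore library to 3775 in a meiocyte library, and the intervals cover counting error only. In *cmt3b* the share was 80.9% ± 1.64 (n = 3) in meiocyte, 32.9% ± 0.586 (n = 3) in sperm, 35.7% ± 2.61 (n = 2) in egg and 68.0% ± 2.80 (n = 3) in zygote. In *cmt3a* egg it was 66.6% ± 2.01 (n = 2), above every library of WT and *cmt3b* egg. Since both copies are near-identical, the shares carry whatever error the assignment of reads between them has.

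**Figure D3:**
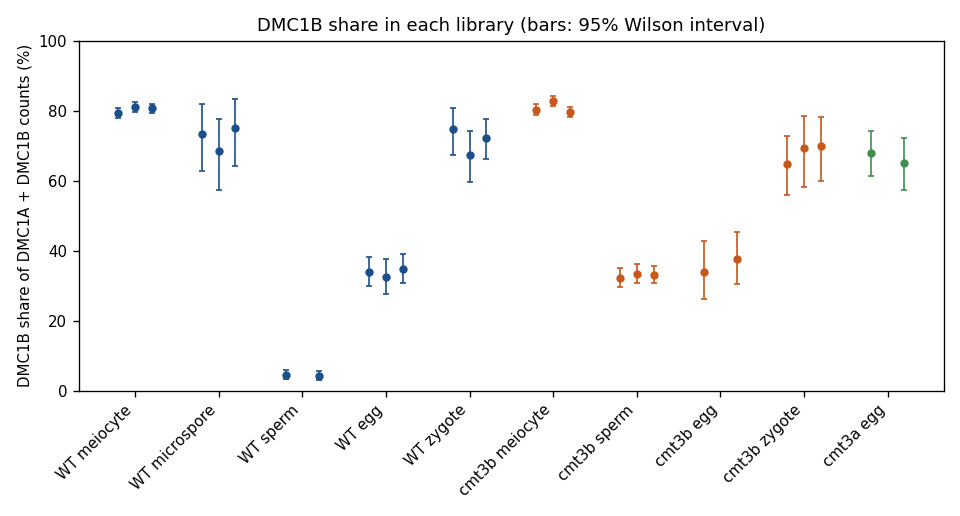
Share of *DMC1B* in the counts of *DMC1A* plus *DMC1B* (vertical axis, percent, from 0 to 100) for each library, by group; bars are 95% Wilson intervals, which cover counting error only. WT meiocyte libraries lie near 80.3% and WT egg libraries near 33.7%, and both WT sperm files lie under 5.97% with their intervals.

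The central mutant comparison asked whether these genes changed in *cmt3b* meiocytes, where *CMT3a* was also lower than in WT. Of the 10 genes 0 were called in *cmt3b* meiocyte (edgeR, adjusted p under 0.01 and fold change over 2), with 10.7% of 23192 genes called higher and 7.90% called lower. DESeq2 also called 0, and 7 of the 10 had an unadjusted edgeR p under 0.05. The share of all genes under that unadjusted limit was not counted, so the 7 genes are a description only. The WT meiocyte libraries also served the comparisons above. At an adjusted p under 0.01 and any fold, 3 genes were higher and 3 lower, with 29.3% of all genes higher and 28.4% lower. The 3 of 10 genes in each direction are near these background shares. The median log2 fold change was -0.05 over the 10 genes and -0.02 over all genes.

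*REC8*, the cohesin gene, was at 13.1, 12.1 and 13.8 FPKM in WT and at 6.51, 6.92 and 7.01 FPKM in *cmt3b* meiocyte. This was the largest change of the 10 genes, a 1.68-fold lower level (log2 fold change -0.75, SE 0.07, edgeR adjusted p = 4.38e-10). *DMC1B* was at 80.1, 86.1 and 85.0 FPKM in *cmt3b* against 120 to 121 FPKM in WT, with a log2 fold change of -0.34 (SE 0.04, edgeR adjusted p = 3.48e-08). *DMC1A* was at 21.4, 19.4 and 23.5 FPKM in *cmt3b* against 30.5 to 34.2 FPKM in WT, with a log2 fold change of -0.39 (SE 0.07, edgeR adjusted p = 7.94e-06). The recombinase copies were thus both lower by less than 2-fold, and their summed counts gave a log2 fold change of -0.35 (SE 0.04, edgeR adjusted p = 1.93e-08).

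*MER3* was at 2.28, 2.26 and 2.39 FPKM in *cmt3b* meiocyte, all above the 1.62 to 1.78 FPKM of WT, with a log2 fold change of 0.65 (SE 0.11, edgeR adjusted p = 7.98e-06). *ZEP1* was at 11.6, 11.4 and 11.5 FPKM in *cmt3b*, with a log2 fold change of 0.42 (SE 0.06, edgeR adjusted p = 4.92e-07). *PAIR1* was at 19.7, 20.6 and 20.7 FPKM, with a log2 fold change of 0.41 (SE 0.06, edgeR adjusted p = 1.50e-06). All 3 were under the 2-fold limit. In FPKM no library of theirs overlapped WT, but the same held for the genes below that did not pass the test. The axis genes *PAIR2* and *PAIR3* had log2 fold changes of -0.02 (SE 0.04, edgeR adjusted p = 0.687) and -0.07 (SE 0.07, edgeR adjusted p = 0.400). *SPO11-1* and *HEI10* had -0.03 (SE 0.07, edgeR adjusted p = 0.752) and -0.23 (SE 0.08, edgeR adjusted p = 0.0203).

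Total counts in place of TMM moved the median of all genes by -0.19 log2 units, and then 3 of the 10 genes were higher and 7 lower at adjusted p under 0.01, *PAIR2*, *PAIR3*, *SPO11-1* and *HEI10* being added to the lower ones. On that scale *REC8* had a log2 fold change of -0.94 and *MER3* one of 0.46, so 0 of the 10 genes were called on either scale. The shares of all genes with total counts were not counted, so the 3 and 7 genes cannot be set against a background. In the list of 20 other meiosis genes, 2 were called lower, 0 were called higher and 10 were lower at any fold, with a median of -0.27. Of the 5 tapetum genes tested, 2 were called higher in *cmt3b* meiocyte, with a median log2 fold change of 0.84.

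**Figure D4:**
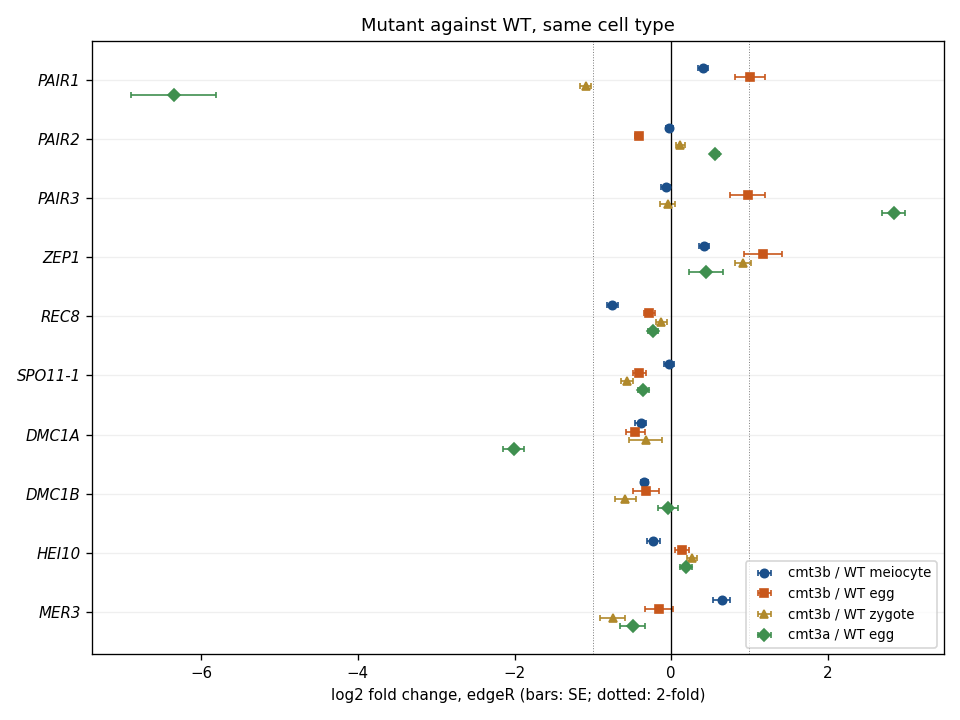
Log2 fold change of each gene in mutant against WT of the same cell type (horizontal axis), with SE bars from edgeR and dotted lines at 2-fold. In meiocyte (circles) all 10 genes lie between the dotted lines; the *PAIR1* value in *cmt3a* egg rests on 1 count in the mutant libraries and is a fitted value, not a bound.

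In egg, *cmt3b* was compared with the same WT libraries that served the egg comparisons above, and 2 of the 10 genes were called higher and 0 lower, with 14.3% of 21466 genes called higher and 8.43% lower. *ZEP1* was at 1.27 and 0.865 FPKM in *cmt3b* egg, with a log2 fold change of 1.17 (SE 0.24, edgeR adjusted p = 7.89e-05). *PAIR1* was at 2.57 and 2.52 FPKM, with a log2 fold change of 1.01 (SE 0.19, edgeR adjusted p = 2.08e-05). Both levels were above every WT egg library but at or under 2.57 FPKM. *PAIR3*, at 1.40 and 1.32 FPKM, was just under the limit with a log2 fold change of 0.98 (SE 0.22, edgeR adjusted p = 2.59e-04). These calls lay at the 2-fold limit, and with total counts neither was made. *PAIR1* had a log2 fold change of 0.78 and *ZEP1* one of 0.94 on that scale.

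The call of *ZEP1* was also lost without *cmt3b* egg replicate 1 (log2 fold change 0.88, edgeR adjusted p = 0.0199). That of *PAIR1* was lost without the same library (1.00), without WT egg replicate 1 (1.00) and without WT egg replicate 3 (0.93), each just under the limit. *PAIR3* was called without WT egg replicate 1 (1.13) and without *cmt3b* egg replicate 2 (1.01). At any fold, 3 genes were higher and 4 lower at adjusted p under 0.01, with 33.8% of all genes higher and 31.9% lower. Without *cmt3b* egg replicate 1, and also with DESeq2, 2 were higher and 2 lower. With all libraries in edgeR the lower ones were *PAIR2*, *REC8*, *SPO11-1* and *DMC1A*, with log2 fold changes between -0.46 and -0.28. Of these, *PAIR2* was at 28.5 and 29.8 FPKM against 45.2 to 46.3 FPKM in WT egg. Medians were -0.21 for the 10 genes and -0.01 for all genes, as log2 fold changes.

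*cmt3a* egg was set against the same 3 WT egg libraries, and 1 of the 10 genes rose and 2 fell, with 19.6% of 22744 genes called higher and 18.5% lower. *PAIR3* was at 4.99 and 4.15 FPKM against 0.716 to 0.941 FPKM in WT egg, a 7.18-fold rise (log2 fold change 2.84, SE 0.15, edgeR adjusted p = 1.08e-11). *PAIR1* had 0 counts in 1 *cmt3a* library and 1 count in the other, against 182 counts over the WT egg libraries. Per total count it was 126-fold lower, with a counting interval of 22.3 to 4989, and the fall was called (edgeR adjusted p = 8.98e-09). The axis gene and the pairing gene thus moved in opposite directions in this mutant. *DMC1A* was at 1.87 and 1.86 FPKM against 8.88 to 10.1 FPKM in WT, with a log2 fold change of -2.01 (SE 0.13, edgeR adjusted p = 2.80e-10). *DMC1B* was at 3.67 and 3.22 FPKM, with a log2 fold change of -0.03 (SE 0.13, edgeR adjusted p = 0.805).

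*PAIR2* was at 54.4 and 52.4 FPKM in *cmt3a* egg, above the WT libraries, with a log2 fold change of 0.57 (SE 0.04, edgeR adjusted p = 1.33e-09). *SPO11-1* was at 12.0 FPKM in both *cmt3a* libraries, with a log2 fold change of -0.35 (SE 0.07, edgeR adjusted p = 1.57e-04). *REC8* and *MER3* had log2 fold changes of -0.23 and -0.49. Total counts in place of TMM moved the median of all genes in this comparison by -0.34 log2 units. The lowest log2 fold changes under any alternative were 0.23 for *PAIR2*, -0.69 for *SPO11-1*, -0.57 for *REC8*, -0.82 for *MER3* and -0.37 for *DMC1B*. The number of members called was 3 under every alternative. At any fold 2 genes were higher and 5 lower at adjusted p under 0.01, with 39.5% of all genes higher and 38.4% lower. Without WT egg replicate 1, and also with DESeq2 and with all groups in 1 fit, 2 were higher and 3 lower. Of the 20 other meiosis genes 11 were called lower and 0 higher in *cmt3a* egg. The median log2 fold change was -0.13 over the 10 genes, -1.27 over the 20 others and 0.01 over all genes.

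In zygote, 1 of the 10 genes fell in *cmt3b* and 0 rose, with 8.08% of 20638 genes called lower and 8.67% higher. *PAIR1* was at 11.2, 9.56 and 10.9 FPKM in *cmt3b* zygote against 21.9 to 24.4 FPKM in WT zygote, a 2.13-fold lower level (log2 fold change -1.09, SE 0.07, edgeR adjusted p = 3.53e-13). *ZEP1* was at 5.10, 5.14 and 4.33 FPKM against 2.53 to 2.71 FPKM in WT, with a log2 fold change of 0.92 (SE 0.11, edgeR adjusted p = 2.94e-08). *HEI10* was at 12.3, 12.2 and 11.9 FPKM against 9.85 to 10.6 FPKM, with a log2 fold change of 0.27 (SE 0.06, edgeR adjusted p = 3.03e-04). Libraries did not overlap between genotypes for any of these 3 genes, and the share of all genes without overlap was not counted. *SPO11-1*, *DMC1B* and *MER3* were lower at the adjusted p but under 2-fold, with log2 fold changes of -0.57, -0.58 and -0.74. *PAIR2*, *PAIR3*, *REC8* and *DMC1A* did not pass the test, with log2 fold changes between -0.32 and 0.12. At any fold 2 genes were higher and 4 lower at adjusted p under 0.01, with 32.7% of all genes higher and 31.8% lower. Over the 10 genes the median log2 fold change was -0.23, and over all genes it was -0.0019.

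The *cmt3b* effects in meiocyte, egg and zygote were compared directly with an interaction term in edgeR (adjusted p under 0.01 and a difference over 1 log2 unit). Between egg and meiocyte 1 of the 10 genes passed both limits (*PAIR3*), with 25.9% of 25529 genes. Between zygote and meiocyte 2 passed (*PAIR1* and *MER3*), with 22.8% of all genes, and between zygote and egg 1 passed (*PAIR1*), with 20.5%. *PAIR1* was higher in *cmt3b* than in WT in meiocyte and egg and lower in zygote.

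Across the 10 groups the genes did not share 1 profile. Pearson's r was taken between each gene's standardized profile and the mean profile of the 10 genes, over the 10 group means of log2(CPM + 1). It ran from 0.383 for *HEI10* to 0.806 for *PAIR3*, as a description of groups that share libraries and scaling. Each gene is itself part of that mean, so these values cannot be set against those of genes outside the 10. Among pairs of genes, *REC8* and *SPO11-1* were most alike (r = 0.933), and *DMC1B* and *HEI10* least (r = -0.283). Among the WT groups, both members of the first pair were highest in sperm and lowest in microspore, as were *DMC1A* and *HEI10*. In some group 10 CPM was reached by 19546 genes, a count that includes members. Of those outside the 10, the 5 with the profile most like the mean of the 10 were LOC_Os06g14620 (r = 0.952), LOC_Os02g52880 (0.939), LOC_Os12g40390 (0.931), LOC_Os01g54390 (0.928) and LOC_Os01g66920 (0.927). LOC_Os06g14620 was at 543 CPM in WT meiocyte, 5.74 CPM in microspore, 209 CPM in sperm, 118 CPM in egg and 312 CPM in zygote.

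The summed level of the 10 genes was 547 to 559 CPM in WT meiocyte, 41.5 to 44.2 CPM in microspore, 305 to 310 CPM in sperm, 204 to 206 CPM in egg and 218 to 230 CPM in zygote. In *cmt3b* it was 436 to 454 CPM in meiocyte, below every WT meiocyte library, and 200 to 210 CPM in sperm. *DMC1B* and *PAIR2*, as the most abundant genes, weigh most in these sums. The sum of the tapetum list had another course, at 1287 to 1304 CPM in microspore, where the sum of the 10 genes was lowest. Its members went both ways there, 3 of the 6 being called higher and 2 lower than in meiocyte.

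**Figure D5:**
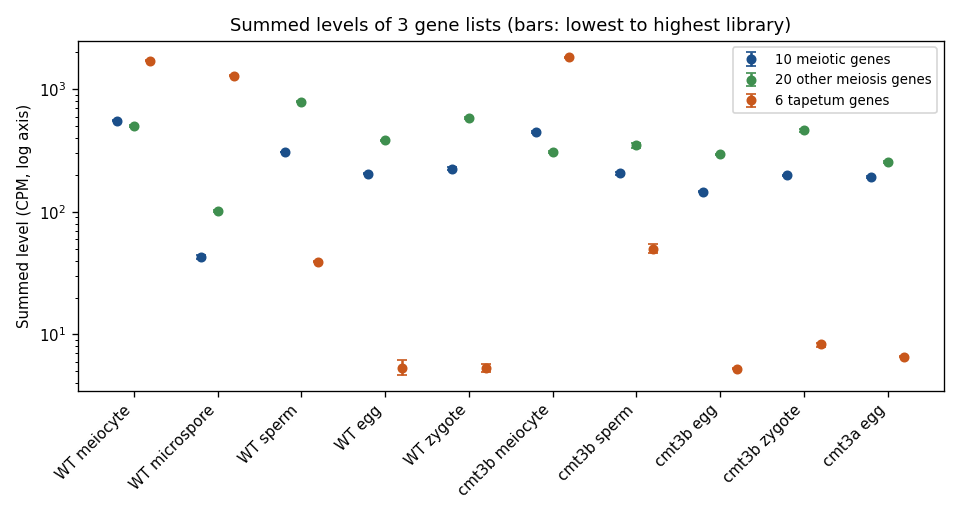
Summed level of 3 gene lists in CPM (vertical axis, log scale) by group, as the mean of the libraries with bars from the lowest to the highest library. The 10 meiotic genes were at 547 to 559 CPM in WT meiocyte and 41.5 to 44.2 CPM in microspore, while the 6 tapetum genes stayed above 1287 CPM in both and were at or under 54.2 CPM in sperm, egg and zygote groups.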

How the data were processed

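RNA-seq of 27 libraries in 10 groups was used, and the 32 BS-seq samples of the 59 were not analysed here. The authors trimmed reads with fastp 0.20.1, mapped them with HISAT2 against rice MSU7.0 and used featureCounts to count reads in genes; strand and multi-mapping settings are not given in the sources used here. Each deposited table gives raw counts per gene, FPKM and TPM. The deposited FPKM values were recomputed from the counts, gene lengths and total counts, with a largest relative difference of 2e-14, and the authors' TPM values were not used further. The kit named for amplifying cDNA differs between the paper and the labels.

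Members and lists were chosen with earlier results of these data known. The 20 other meiosis genes and 6 tapetum genes were listed from general knowledge, and the reference table matched 0 identifiers, so they are given as counts; no sequence or position is given.

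Counts were tested in R 4.3.3 with edgeR 4.0.16 (TMM, filterByExpr at a minimum count of 10, quasi-likelihood test, only the compared groups) and Benjamini-Hochberg adjustment over all genes tested; a gene was called at adjusted p under 0.01 and fold change over 2. All 10 genes were tested in each of these comparisons. The method was checked on simulated data. WT sperm was the rounded mean of its 2 files, with log2 ratios at a prior count of 2 and no test. Levels are the authors' FPKM per total count, and fold changes use TMM. Alternatives were DESeq2 1.42.0, DESeq2 size factors, no filter, all groups in 1 fit, a replicate block, each replicate left out, a prior count of 0.5 and, chosen after seeing the data, total counts, summed *DMC1* counts and the interaction of genotype with cell type. Genes named are the 10 members and the 5 with the most similar profile.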

Additional observations from a re-analysis of the deposited data

Results flagged for a closer look

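The effect of *cmt3b* was compared between meiocyte, egg and zygote with an interaction term in 1 edgeR fit of the 6 groups of both genotypes, for 3 contrasts and 30 differences in the 10 genes, and 4 differences passed an adjusted p under 0.01 over 25529 genes and 1 log2 unit. The contrasts share libraries, and in each of them the 10 genes passed both limits no more often than all genes did. For *PAIR1* the effect in zygote minus that in meiocyte was -1.47 (SE 0.09, edgeR adjusted p = 1.54e-17), with 22.8% of all genes past both limits. For *PAIR1* the effect in zygote minus that in egg was -2.07 (SE 0.20, edgeR adjusted p = 1.56e-11), with 20.5% of all genes past both limits. *PAIR1* was thus lower in *cmt3b* zygote and higher in *cmt3b* meiocyte and egg than in WT. For *MER3* the zygote effect minus the meiocyte effect was -1.37 (SE 0.19, edgeR adjusted p = 5.69e-08). For *PAIR3* the egg effect minus the meiocyte effect was 1.03 (SE 0.24, edgeR adjusted p = 2.26e-04), with 25.9% of all genes past both limits.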

How the results depend on the processing

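The counts of genes called kept within 1.5 times of the reported value under every alternative run, except for *cmt3b* egg against WT egg. There, in place of 2 calls, 0 were made with total counts, and 1 each with DESeq2, with no filter on low counts, with all groups in 1 fit and with the replicate block; leaving out 1 replicate each gave 0 to 3. Replicate numbers did not pair the samples: 22 correlations of deviations ran from -0.07 to 0.06, and the block changed no other call. Of single fold changes, 11 reversed, each of them small and not called in either setting. They were *SPO11-1* in *cmt3b* meiocyte without WT replicate 1 (0.0014) and without *cmt3b* replicate 1 (0.0123), *PAIR2* in *cmt3b* meiocyte without *cmt3b* replicate 2 (0.0082), *HEI10* with total counts in *cmt3b* egg (-0.0901) and *cmt3a* egg (-0.1479), *DMC1B* in *cmt3a* egg with all groups in 1 fit (0.0054), with the replicate block (0.0147), without WT replicate 3 (0.0035) and without *cmt3a* replicate 2 (0.0496), and *PAIR3* in *cmt3b* zygote without WT replicate 3 (0.0295) and without *cmt3b* replicate 3 (0.0467). Over all replicates left out, these 4 ranged from -0.0606 to 0.0123, from -0.0427 to 0.0082, from -0.1258 to 0.0496 and from -0.1406 to 0.0467 for *SPO11-1*, *PAIR2*, *DMC1B* and *PAIR3*. The cause was not tested. Shares over all genes were counted in the reported setting only, not under the alternatives. With library sizes scaled by TMM, 34 mean FPKM levels of the 10 genes in WT groups moved by more than 1 SD. WT sperm has no SD, and any move of its levels was included in this count. At 3 counts a gene is at 0.167 CPM in the smaller WT sperm file, which limits *MER3*, *ZEP1* and *PAIR1* there, and at 0.202 CPM in the smallest *cmt3b* sperm library, which limits *MER3* and *ZEP1*.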
